A study of Bos taurus with 8 samples.

Results

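Of the 16606 genes in a table of bovine embryo RNA levels, 799 were higher in every library from embryos edited in RPL12 than in every control library. They were chosen by 3 conditions on CPM (reads of a gene per 1000000 reads of the library). The lowest of the 4 edited libraries had to lie above the highest of the 4 control libraries, the mean of the edited libraries had to be at least 1.5 times that of the controls, and the mean over all 8 libraries had to reach 10 CPM. In all 804 genes met these conditions, and 5 of them (OOSP2, DPPA3, CNOT6L, IGF2BP3 and TP53INP1) were set aside. The measured values themselves thus chose the members, so every difference between edited and control libraries given for them is a description and carries no test of its own.

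The embryos were made by maturing cattle oocytes from abattoir ovaries in vitro and fertilising them with frozen Holstein semen. For editing, zygotes received cytoplasmic injections of PEmax, a Cas9 nickase joined to a reverse transcriptase that copies a change from its guide RNA into DNA, and the guide RNA. The series names the edit A148G in RPL12, a protein of the large ribosomal subunit, and the sample titles call the embryos base edited. The 4 groups were control and edited embryos at the 4-cell stage and control and edited embryos at the 8-cell stage. Each group had 2 libraries, made from 5 embryos apiece. Nothing in the labels tells whether controls had an injection, so injection and edit cannot be told apart, and they give neither the share of edited alleles nor a date or batch. They do not say that replicates came from separate cultures, so p-values here measure only the spread between these samples. The labels give oocytes as the source of the 4-cell libraries, whereas their titles name 4-cell embryos, and the titles were followed.

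Until its own genome is switched on, a mammalian embryo runs on messenger RNA stored by the growing oocyte. In cattle the main wave of embryonic transcription falls around the 8-cell stage. Stored transcripts are held with short poly(A) tails, lengthened when they are translated, and removed after fertilisation by deadenylation. The oocyte also carries transcripts of meiosis, such as those of the synaptonemal complex that holds paired chromosomes together, which were made before birth or during growth. The level of a transcript in such an embryo therefore reflects storage and decay as well as synthesis.

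The recovered reads came to between 33527531 and 35122409 in a library, and 3 reads correspond to 0.0858 to 0.0899 CPM. The lowest value of any member in any library was 1.51 CPM, or 52 reads, for NKAIN2. RPL12 stood at 159 and 174 CPM in the 4-cell controls, 96.3 and 97.6 CPM in the 8-cell controls, 27.5 and 33.6 CPM in the 4-cell edited and 14.1 and 11.9 CPM in the 8-cell edited libraries. Low values were not particular to RPL12. Over the 72 cytosolic ribosomal protein genes averaging at least 10 CPM, the median ratio of edited to control means was 0.321. Markers of the oocyte were present in every library. Summed over 10 genes they stood at 18251 and 24180 CPM in the 4-cell controls and 46648 and 34368.5 CPM in the 8-cell controls. In edited libraries they summed to 41954 and 51187 CPM at the 4-cell and 48335 and 51716 CPM at the 8-cell stage. Of the 10, 2 were higher in every edited than in every control library and 0 were lower. The 20 markers of cumulus and granulosa cells, the somatic cells around the oocyte, summed to 1911 and 1536 CPM in the 4-cell controls, 677 and 1032 CPM in the 8-cell controls and 480 to 540 CPM in the 4 edited libraries. None of the 20 was at 0 in all libraries, 10 were lower in every edited than in every control library, and HAS2 was the one that was higher. Of the 20 markers, 11 averaged at least 10 CPM. Of these, 6 met the rule mirrored, with every control library above every edited one, as did 20.2% of all genes at that level. For oocyte markers and HAS2 the share to set beside is 13.8%, the genes at that level higher in every edited library. The part of oocyte and of cumulus and granulosa RNA in the members' difference was not tested. In bulk libraries fewer cells of a type and less RNA per cell cannot be told apart. Leukocyte markers summed to at most 11.2 CPM and the single sperm marker in the table to at most 0.405 CPM.

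The members were 10.8% of the 7436 genes averaging at least 10 CPM, counting the 5 set aside. The mirrored rule, with every control library above every edited one, was met by 1501 genes or 20.2%. A further 219 genes had no overlap in the same direction but a ratio of means under 1.5, so that 13.8% did not overlap with edited higher. At the edge of the rule, ZMYM6 and C16H1orf112 were just inside with ratios of 1.501 and 1.502, and CTNND1 and DCUN1D4 just outside with ratios of 1.499 and 1.498. The members' mean level ran from 10.1 to 10121 CPM, with a median of 62.3 CPM.

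Members took a larger share of the reads in edited embryos. Of all reads they made up 5.89% and 7.87% in the 4-cell controls and 11.2% and 9.80% in the 8-cell controls. In edited embryos they made up 15.7% and 17.3% at the 4-cell and 15.1% and 14.9% at the 8-cell stage. The ratio of edited to control mean CPM had a median of 1.78 over the members. It was at least 2 in 176 of them and at least 3 in 4 of them, which were TEX12, TSPAN19, UBE2E1 and RIPPLY2. The gap between the conditions was narrow for many: in 157 members the lowest edited library was less than 5% above the highest control library, and the median of this gap ratio was 1.15. A shift of less than 5% in 1 library would take such a member out of the rule. Whether counting error alone could do so depends on the gene's number of reads and was not worked out for each member.

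**Figure D1:**
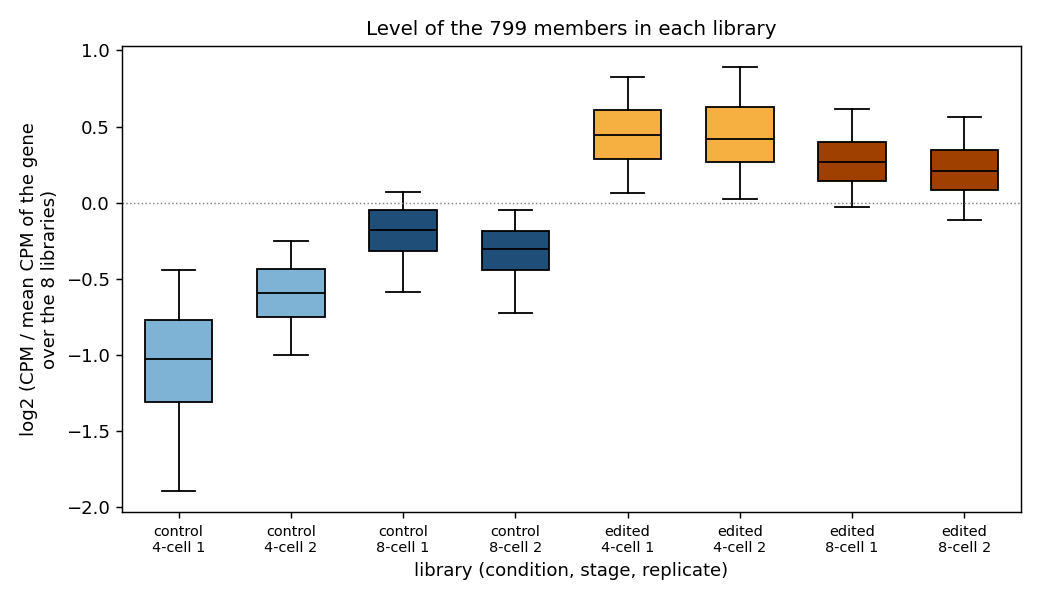
Level of the 799 members in each of the 8 libraries, as log2 of a gene's CPM over its own mean in the 8 libraries. Boxes span the middle 50% of the members with the median as a line, and whiskers run from the 5th to the 95th percentile. The medians lie at -1.02 and -0.59 in the 4-cell controls, -0.18 and -0.30 in the 8-cell controls, and between 0.21 and 0.45 in the edited libraries.

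The libraries of a condition did not lie level. Replicate 1 of the 4-cell controls held the lowest of the 4 control values for 657 members (82.2%), against 42.7% over all genes averaging at least 10 CPM. Replicate 1 of the 8-cell controls held the highest control value for 536 members (67.1%, against 32.2%), and so set the bound that the edited libraries had to pass. Among the edited libraries, replicate 2 of the 8-cell stage was the lowest for 343 members. With that bounding 8-cell control library left out 1362 genes met the rule, and with replicate 1 of the 4-cell controls left out 621 did, of which 595 were members.

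The ratio differed in size between the stages. Its median over the members was 2.30 at the 4-cell stage and 1.40 at the 8-cell stage, and 761 of the 799 members (95.2%) had the larger ratio at the 4-cell stage. Over all genes averaging at least 10 CPM the larger ratio was at the 4-cell stage for 59.0%. Those genes include the 1501 that met the mirrored rule, so the 2 shares are not over like sets. The values that chose the members make up both ratios, so these figures are only a description. Replicate 1 of the 4-cell controls, the lowest control for 82.2% of the members, enters the 4-cell ratio. At the 8-cell stage alone 258 members reached a ratio of 1.5, whereas 792 did at the 4-cell stage. The summed cumulus and granulosa markers and the summed oocyte markers also differed more between conditions at the 4-cell stage.

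**Figure D2:**
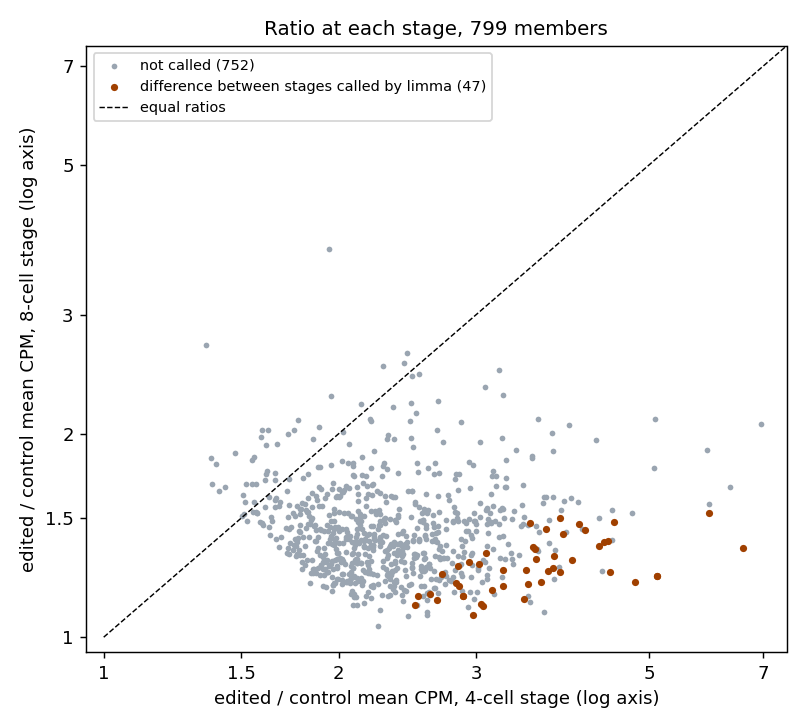
Ratio of edited to control mean CPM of each of the 799 members at the 4-cell stage (x axis) and at the 8-cell stage (y axis), both on log axes. The dashed line marks equal ratios, and brown points are the 47 members that limma called for a difference of the editing effect between stages. The values that chose the members enter this call, so it is only a description. Of the points, 761 lie below the line.

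The widest gaps belonged to a mixed group of genes. LOC100296901 came first, with 4.75 and 18.8 CPM in the 4-cell controls, 18.4 and 17.2 CPM in the 8-cell controls, 43.7 and 49.3 CPM in the 4-cell edited and 37.4 and 36.1 CPM in the 8-cell edited libraries. Its lowest edited library was 1.92 times its highest control library. ZNF345, a zinc finger protein, stood at 11.6 and 18.4 and at 16.6 and 19.95 CPM in 4-cell and 8-cell controls and at 48.2 and 37.8 and 39.96 and 36.2 CPM in the edited libraries of these stages.

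C5H12orf40 is the cattle gene named for the human reading frame C12orf40, whose protein acts in meiotic recombination. It stood at 16.5 and 17.4 CPM in the 4-cell and 16.4 and 18.9 CPM in the 8-cell controls, against 56.4 and 71.2 and 32.9 and 33.8 CPM in the edited libraries. The 4 controls were level and the 4-cell edited pair was the highest. RUNX1T1, a transcriptional corepressor, stood at 10.98 to 17.5 CPM in the controls and 29.5 to 37.3 CPM in the edited libraries. HMGB3, a chromatin protein that bends DNA, was the more abundant, with 60.8 to 81.6 CPM in the controls and 137 to 156 CPM in the edited libraries. TTC32, a tetratricopeptide repeat protein, ranged from 5.77 to 13.2 CPM and from 22.1 to 31.8 CPM.

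F3 encodes tissue factor, the membrane protein that starts blood clotting. It stood at 123.2 and 536 CPM in the 4-cell controls, 538 and 620.0 CPM in the 8-cell controls, 1138 and 997 CPM in the 4-cell edited and 1235 and 1050.1 CPM in the 8-cell edited libraries. Replicate 1 of the 4-cell controls lay far below the other 3 controls. The same library was the lowest for FAM227B (10.4 and 24.5 CPM in 4-cell and 37.6 and 35.8 CPM in 8-cell controls, against 61.9 to 95.2 CPM in the edited libraries). It was also the lowest for ZNF214, a zinc finger gene with 3.80 and 6.10 and 13.5 and 10.2 CPM in the controls and 21.7 to 28.3 CPM in the edited libraries.

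**Figure D3:**
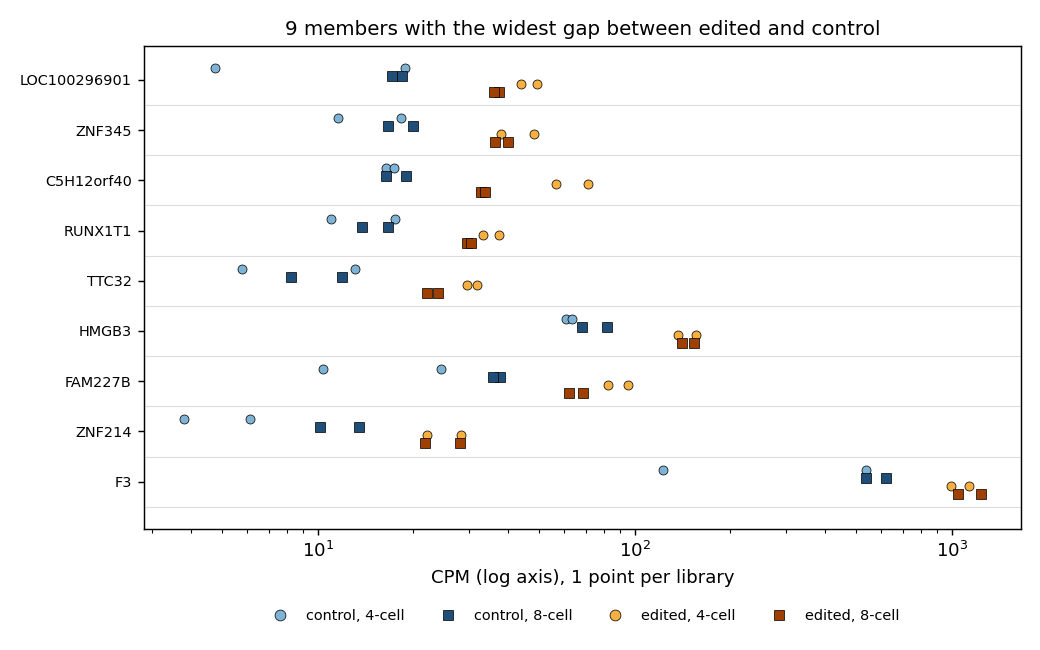
CPM on a log axis of 9 members with the highest ratios of lowest edited to highest control library, 1 point per library, with colour and shape for the group. In each row the 4 edited points lie right of the 4 control points, as the rule requires, and for LOC100296901, FAM227B and F3 replicate 1 of the 4-cell controls lies apart to the left.

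Of the 6 members with the highest mean level, 4 carried a symbol. PAIP1, which binds the poly(A)-binding protein and the translation initiation machinery, stood at 2768 and 5898 CPM in 4-cell and 9994 and 6642 CPM in 8-cell controls. In edited embryos it stood at 10131 and 15669 CPM at the 4-cell and 14860.1 and 15006 CPM at the 8-cell stage. Its lowest edited library was only 1.01 times its highest control library. Without PAIP1 the members took 5.61% to 10.2% of the reads in controls and 13.4% to 15.7% in edited libraries. YPEL5, a subunit of the CTLH ubiquitin ligase, had 2275 and 1837 and 3351 and 2573 CPM in the controls and 3366 to 4502 CPM in the edited libraries. Its ratio of 1.51 was close to the bound of the rule.

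UBE2D3, a ubiquitin-conjugating enzyme, was more clearly apart, with 1760.0 to 2392 CPM in the controls and 3035 to 4147 CPM in the edited libraries. CKS2, a small subunit of cyclin-dependent kinases, stood at 883 and 762 CPM in 4-cell controls, 1540.1 and 1881 CPM in 8-cell controls, 3245 and 2548 CPM in 4-cell and 2718 and 2337 CPM in 8-cell edited libraries. The 8-cell controls lay between the 4-cell controls and the edited libraries. One of the other 2, LOC286807, had the same values in all 8 libraries as SUMO2, a ubiquitin-like modifier, with 858 to 1517 CPM in the controls and 1772 to 2687 CPM in the edited libraries, and their reads could not be told apart.

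Some of the members were genes of meiosis. On a list of meiotic prophase genes drawn up after the members had been seen, 10 of the 26 genes averaging at least 10 CPM were members (38.5%, against 10.8% of all such genes), and none of the 26 met the mirrored rule. Because of how the list arose, this share is only a description. Of all genes averaging at least 10 CPM, 20.2% met the mirrored rule. That share is the one to set beside the mirrored counts of this list and those below. TEX12, part of the central element of the synaptonemal complex, had the highest ratio of all members (3.72). It stood at 6.61 and 20.2 CPM in 4-cell controls, 35.6 and 16.97 CPM in 8-cell controls, 91.7 and 94.97 CPM in 4-cell and 54.9 and 53.8 CPM in 8-cell edited libraries. The edited libraries of the 4-cell stage were the highest pair.

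SYCP1, the transverse filament of that complex, had a similar order of groups. It stood at 11.5 and 14.6 CPM in 4-cell and 10.5 and 10.6 CPM in 8-cell controls, 42.6 and 42.99 CPM in 4-cell edited and 17.6 and 18.6 CPM in 8-cell edited libraries. SYCP3, from its lateral elements, was far more abundant, with 352 and 395 CPM in 4-cell and 758 and 708 CPM in 8-cell controls and 831 to 1030.2 CPM in the edited libraries. SYCP2, its partner, had 13.2 to 27.2 CPM in the controls and 29.7 to 40.7 CPM in the edited libraries. SPATA22, which acts in meiotic recombination, stood at 358 to 715 CPM in the controls and 794 to 1219 CPM in the edited libraries. ZCWPW1, a reader of histone marks at recombination sites, stood at 115 to 166 CPM in the controls and 205 to 268 CPM in the edited libraries. The other members of the list were REC114, MSH5, MEIOC and C5H12orf40. SYCP1, SYCP2, SPATA22 and ZCWPW1 were picked for printing after their values had been seen.

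The piRNA pathway silences transposons in germ cells. It gave 5 members among 15 genes averaging at least 10 CPM (33.3%, against 10.8% of all such genes). The list was likewise drawn up afterwards, so the share is only a description. MAEL, a factor of this pathway, stood at 317 and 399.7 CPM in 4-cell and 474 and 497 CPM in 8-cell controls and at 654 and 802 and 657 and 948 CPM in the edited libraries of these stages. RNF17, a tudor domain protein, stood at 21.4 to 26.3 CPM in the controls, 53.6 and 69.5 CPM in 4-cell edited and 29.3 and 35.04 CPM in 8-cell edited libraries. The 4-cell edited pair was thus clearly the highest for RNF17 but not for MAEL. TDRD1, GTSF1 and EXD1 were the other 3 members, with ratios of 1.82, 1.59 and 1.72.

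Transcripts listed as oocyte-specific included 2 of the genes set aside. Whether they are also expressed outside the oocyte was not examined. Of 38 averaging at least 10 CPM, on a list written with the test design, 5 were members and OOSP2 and DPPA3 had been set aside, so that 18.4% met the rule against 10.8% of all genes, and 0 met the mirrored rule. The members were ZAR1, SYCP3, GDF9, UHRF1 and ELAVL2. ZAR1, an RNA-binding protein that stores maternal transcripts, stood at 80.5 and 54.2 CPM in 4-cell and 58.1 and 72.3 CPM in 8-cell controls and at 97.5 to 119.9 CPM in the edited libraries. GDF9, a growth factor that the oocyte sends to its cumulus cells, stood at 301 and 636 and 659.5 and 494 CPM in the controls. In edited embryos it stood at 750.2 and 703 CPM at the 4-cell and 911 and 1035 CPM at the 8-cell stage, so that its 8-cell edited pair was the highest. HAS2, which makes the hyaluronan of the expanding cumulus and was listed as a cumulus marker, stood at 24.3 and 55.4 CPM in 4-cell and 74.9 and 88.8 CPM in 8-cell controls and 106 to 132 CPM in the edited libraries.

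Several general transcription factors that recognise promoters were members. TBP binds the TATA element, TBPL2 takes its place in growing oocytes, TBPL1 is another relative, and TFIIA and TFIIB join them at the promoter. All of TBP, TBPL1 and TBPL2 were members, as were GTF2A1, GTF2A1L, GTF2B and TAF9B. This made 7 of 19 genes (36.8%, against 10.8% of all genes) of a list drawn up after the members had been seen, so the share is only a description. TBPL2 stood at 23.96 and 24.4 CPM in 4-cell controls, 30.01 and 26.9 CPM in 8-cell controls, 37.9 and 45.3 CPM in 4-cell edited and 50.3 and 63.4 CPM in 8-cell edited libraries. TBP stood at 20.2 to 29.9 CPM in the controls and 36.5 to 38.5 CPM in the edited libraries. TBPL1 was more abundant, with 1013 and 814 CPM in 4-cell and 1504 and 1579 CPM in 8-cell controls and 1628 to 2117 CPM in the edited libraries.

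GTF2A1, the large TFIIA precursor, had another pattern. It stood at 16.4 and 22.96 CPM in 4-cell and 31.6 and 31.4 CPM in 8-cell controls, 94.6 and 79.4 CPM in 4-cell edited and 47.1 and 40.4 CPM in 8-cell edited libraries. Its germ-line paralog GTF2A1L ran from 105 to 262 CPM in the controls and from 263 to 309 CPM in the edited libraries, with almost no gap. GTF2B stood at 217 and 445 and 569 and 492 CPM in the controls and 632 to 860.4 CPM in the edited libraries. Of the TAF subunits, TAF11 met the mirrored rule with a ratio of 0.439, and TAF9, the paralog of TAF9B, had a ratio of 0.648 against 1.62 for TAF9B. The values of TBP, TBPL1, GTF2A1L, GTF2B, TAF9 and TAF11 were also chosen after they had been seen.

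**Figure D4:**
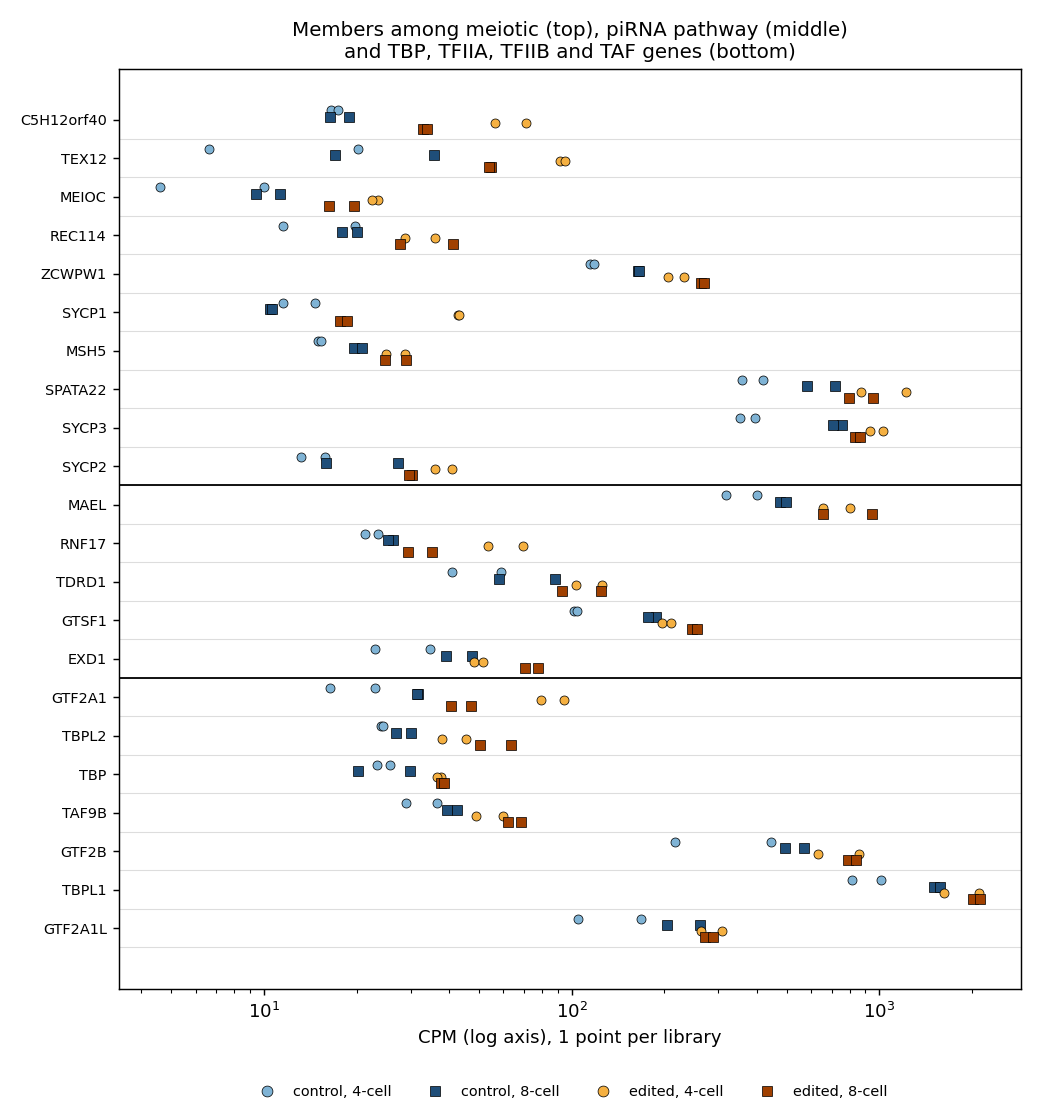
CPM on a log axis of the members among meiotic prophase genes (10, top), piRNA pathway genes (5, middle) and TBP, TFIIA, TFIIB and TAF genes (7, bottom), 1 point per library, with colour and shape for the group. For C5H12orf40, TEX12, SYCP1, RNF17 and GTF2A1 the 4-cell edited libraries (yellow circles) lie above the 8-cell edited ones (brown squares), and for TBPL2, GTSF1 and EXD1 they lie below.

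Factors that shorten and control stored transcripts gave 8 members among 39 decay genes averaging at least 10 CPM and 6 among 41 genes of storage and translational control. CNOT6L and IGF2BP3 had been set aside. With them 23.1% and 17.1% met the rule, against 10.8% of all genes. In the decay list 3 genes and in the storage list 4 genes met the mirrored rule. MEIOC, which works with an RNA helicase to end the mitotic programme of germ cells, stood at 4.61 and 9.97 CPM in 4-cell and 11.3 and 9.43 CPM in 8-cell controls and 16.2 to 23.5 CPM in the edited libraries. CNOT4, a ubiquitin ligase linked to the CCR4-NOT deadenylase, stood at 88.6 to 159 CPM in the controls and 194 to 234 CPM in the edited libraries. CNOT6 and CNOT7, catalytic deadenylase subunits, had ratios of 2.11 and 1.60.

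Of the storage factors, CPEB3 and CPEB4 bind the cytoplasmic polyadenylation element. CPEB4 stood at 10.3 and 30.96 CPM in 4-cell controls, 37.6 and 32.8 CPM in 8-cell controls, 76.5 and 83.9 CPM in 4-cell and 61.4 and 50.6 CPM in 8-cell edited libraries. CPEB3 was weaker, with 6.14 to 13.8 CPM in the controls and 20.8 to 26.96 CPM in the edited libraries. Both had replicate 1 of the 4-cell controls as the lowest library. The other members were STAU1, ZAR1, ELAVL2 and PAIP1.

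Cell cycle genes gave 9 members among 61 (14.8%, against 10.8% of all genes), with 4 meeting the mirrored rule. SGO2, shugoshin 2, which guards centromeric cohesin in meiosis, stood at 99.03 and 101 CPM in 4-cell and 152 and 146 CPM in 8-cell controls, 275 and 375 CPM in 4-cell edited and 243 and 219.9 CPM in 8-cell edited libraries. CDK1, the kinase that drives entry into M phase, stood at 5.01 and 13.7 and 18.5 and 14.6 CPM in the controls and 23.2 to 31.7 CPM in the edited libraries. CKS2, CCNA2, CDK7, ANAPC10, MASTL, FBXO43 and BORA were the other members, all with roles around M phase or the anaphase-promoting complex apart from CDK7, which activates other CDKs. Centromere and kinetochore genes gave 9 members among 39 (23.1%, against 10.8% of all genes), while 2 met the mirrored rule. This list was drawn up afterwards, so its share is only a description. CENPI, a constitutive centromere protein, stood at 31.1 and 77.1 and 82.95 and 78.6 CPM in the controls and 120.4 to 173 CPM in the edited libraries.

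Among regulators of transcription and chromatin, the numbered zinc finger genes gave the largest number. Of 126 averaging at least 10 CPM, 35 were members (27.8%, against 10.8% of all such genes) and 8 met the mirrored rule. ZNF345 and ZNF214 had the widest gaps. Many of these genes lie in families of similar sequence, and their reads are uncertain to the extent that counting could split them.

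Chromatin modifiers gave 9 members among 86 (10.5%) against 10.8% of all genes, and 8 met the mirrored rule. EP300, a histone acetyltransferase, stood at 8.17 to 19.6 CPM in the controls and 25.7 to 27.2 CPM in the edited libraries. KDM1B, a histone demethylase needed in oocytes, stood at 27.03 to 35.6 CPM and 40.9 to 54.5 CPM. Polycomb proteins, which keep developmental genes silent, gave 9 members among 26 (34.6%, against 10.8% of all genes), with 2 in the mirrored direction. Their list was drawn up afterwards, so the share is only a description. The 9 members were EZH2 and AEBP2 of the methylating complex, RNF2, PCGF5, PCGF6, RYBP, YAF2 and BCOR of the ubiquitylating complexes, and MBTD1. YAF2 stood at 21.8 to 32.4 CPM in the controls and 43.5 to 62.01 CPM in the edited libraries. AEBP2 stood at 13.6 to 28.9 CPM in the controls and 37.1 to 49.97 CPM in the edited libraries.

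Ubiquitin ligases gave 14 members among 105 genes (13.3%) and ubiquitin-conjugating enzymes and proteases 11 among 72 (15.3%), against 10.8% of all genes. The mirrored rule was met by 6 and 7 genes of these lists. TRIM59 stood at 198 and 220.2 CPM in 4-cell and 347 and 315 CPM in 8-cell controls and 491 to 699 CPM in the edited libraries. TRIM23 stood at 7.13 to 13.8 CPM in the controls and 18.1 to 27.2 CPM in the edited libraries. UBE2W, which places ubiquitin on protein N-termini, stood at 128 to 208 CPM in the controls and 253 to 373 CPM in the edited libraries.

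Signalling lists were short. From TGF-beta and BMP signalling 4 of 25 genes were members (16%, against 10.8% of all genes). They were the receptors BMPR1A and BMPR2, the signal carrier SMAD5 and the ligand GDF9. Of the 25 genes, 5 met the mirrored rule, as did 20.2% of all genes averaging at least 10 CPM. BMPR2 stood at 16.5 and 31.02 CPM in 4-cell and 39.7 and 44.2 CPM in 8-cell controls, 82.6 and 94.6 CPM in 4-cell edited and 57.2 and 58.7 CPM in 8-cell edited libraries. SMAD5 stood at 62.9 to 103 CPM in the controls and 119 to 179.8 CPM in the edited libraries. From WNT signalling the members were the receptor FZD5, the nuclear factor LEF1 and the cofactor PYGO1. They were 3 of 21 genes (14.3%, against 10.8% of all genes). FZD5 stood at 10.95 and 12.3 CPM in 4-cell and 20.97 and 17.1 CPM in 8-cell controls, 50.8 and 51.1 CPM in 4-cell edited and 26.00 and 26.7 CPM in 8-cell edited libraries.

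Small GTPases and RGS proteins gave 9 members among 46 (19.6%, against 10.8% of all genes). They were led by ARL6, a ciliary trafficking protein (102 to 195 CPM in controls, 256 to 361 CPM in edited libraries), and RAP1A (39.1 to 92.8 CPM and 111 to 178 CPM). MAPK regulators gave 4 among 36 (11.1%, against 10.8% of all genes). The phosphatases DUSP10 (141 to 170.3 CPM and 238 to 249 CPM) and DUSP19 (46.6 to 62.8 CPM and 82.3 to 104 CPM) led them. The mirrored rule was met by 7 of the small GTPase and RGS genes and by 6 of the MAPK regulators. Kinases of polarity and growth gave PRKAR2A and PARD6B among 41 (4.88%), and autophagy genes ATG14 and ATG2B among 35 (5.71%). With the 1 gene set aside, 8.57% of the autophagy genes met the rule. The shares of the kinase and the autophagy list lay under the 10.8% of all genes. The mirrored rule was met by 3 genes of the kinase list and 5 of the autophagy list. No gene was a member among 72 cytosolic ribosomal protein genes. Of the 72, 64 met the mirrored rule, against 20.2% of all genes averaging at least 10 CPM. None was a member among 7 genes listed as activated at the 8-cell stage, of which 1 met the mirrored rule. A list of 7 genes is too short to set 0 against 10.8%. Outside every list stood 650 of the 799 members, so these groups describe a minor part of the set.

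**Figure D5:**
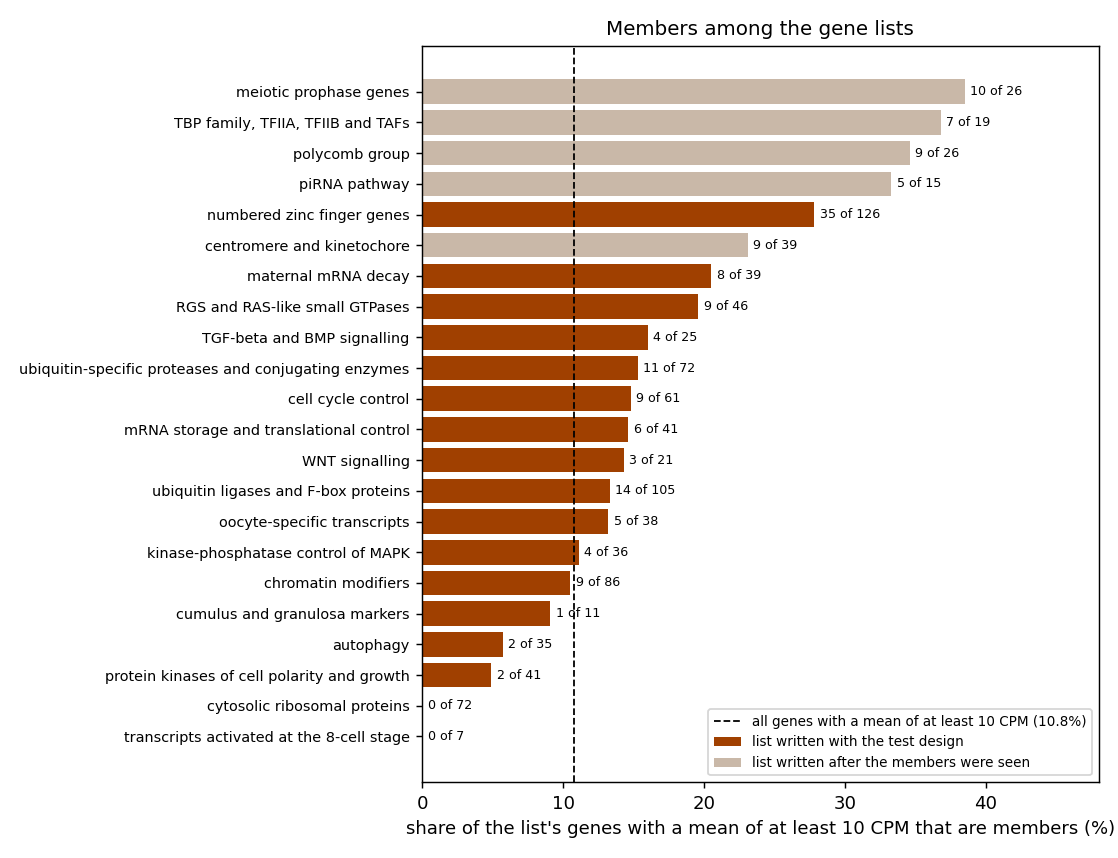
Share of each list's genes averaging at least 10 CPM that were members, in percent, with the counts beside the bars. Dark bars are lists written with the test design, pale bars lists drawn up after the members had been seen, and the dashed line marks the 10.8% of all genes averaging at least 10 CPM, which counts the 5 genes set aside that the bars leave out. Numbered zinc finger genes lie at 27.8% and ribosomal protein genes at 0%.

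The stages were compared within each condition, a contrast that the rule does not name. The same libraries had entered the rule, and all 8 also gave limma its estimate of the spread. The members' counts are therefore read as descriptions beside those of all genes. The p-values printed for single members are descriptions too. In control embryos 92 of the 799 members (11.5%) had risen by the 8-cell stage in limma at an adjusted p-value under 0.05, against 2.75% of the 12129 genes tested. None was lower, against 6.27% of all genes, and none had an unadjusted p-value under 0.05 in that direction. edgeR and DESeq2 also called none lower. The 12129 genes averaged at least 1 CPM, whereas every member averaged at least 10 CPM. Shares called among the 7436 genes at the members' level were not counted, here or in the stage comparisons below. The median log2 fold change on the log2(CPM + 1) scale was 0.56 over the members, 0.10 over the 7436 genes averaging at least 10 CPM and 0.01 over all genes tested, and 781 members had a positive value.

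The control stage difference was led by ANKRD40CL, SPAG17 and CEP57L1. ANKRD40CL, an ankyrin repeat gene, stood at 21.8 and 32.9 CPM in the 4-cell and 82.5 and 79.6 CPM in the 8-cell controls. Its means were 27.3 ± 7.85 and 81.04 ± 2.10 CPM (SD, n = 2), and its log2 fold change was 1.56 ± 0.25 (SE; limma, adjusted p = 0.0083). SPAG17, a protein of the ciliary central apparatus, rose from 131 and 250.4 CPM to 483 and 453 CPM, by 1.36 ± 0.26 (limma, adjusted p = 0.0121). CEP57L1, a centrosomal protein, rose from 127 and 122 CPM to 257 and 244 CPM, by 1.003 ± 0.20 (limma, adjusted p = 0.014). The libraries of the 4-cell and the 8-cell controls did not overlap for any of the 3.

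Several other members also rose between the stages in control embryos. From meiosis and the piRNA pathway these were SYCP3, by 0.97 on the log2 scale (limma, adjusted p = 0.0147), and GTSF1, by 0.82 (adjusted p = 0.0274). From the cell cycle list CKS2 rose by 1.052 (limma, adjusted p = 0.0152) and BORA by 0.71 (adjusted p = 0.0403). TBPL1, HAS2, CNOT6, PCGF5, FAM227B, NKAIN2, CENPP, CENPQ, ZNF214 and ZNF260 passed the same test. As the rule requires, their levels in the 8-cell controls lay below those of every edited library of either stage.

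The control count of 92 changed with single libraries. It was 0 without replicate 1 of the 4-cell controls, 334 without replicate 2, 0 without replicate 1 of the 8-cell controls and 54 without replicate 2, and between 38 and 43 when any 1 edited library was left out. DESeq2 on recovered reads called 92 and edgeR 1.

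In edited embryos few members passed the test between the stages, and those that did were lower at the 8-cell stage. By limma 15 members (1.88%) had fallen by the 8-cell stage, against 3.73% of all genes tested. None was higher, against 1.45% of all genes, with 5 members at an unadjusted p-value under 0.05 and none called by edgeR or DESeq2. The median log2 fold change was -0.18 over the members, -0.09 over the genes averaging at least 10 CPM and -0.04 over all genes. RDX, the cytoskeletal linker radixin, fell from 315 and 329 CPM to 179 and 162 CPM, a log2 change of -0.92 ± 0.21 (SE; limma, adjusted p = 0.0215). ZFAND5, a zinc finger protein linked to proteasome activity, fell from 421 and 396 CPM to 232 and 202 CPM, a log2 change of -0.92 ± 0.22 (limma, adjusted p = 0.0266). LOC132342739 fell from 143 and 196 CPM to 71.1 and 76.8 CPM, a log2 change of -1.17 ± 0.28 (limma, adjusted p = 0.0263).

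SYCP1, GTF2A1 and UBE2E1 were among the other 12 members that fell in edited embryos. SYCP1 had a log2 fold change of -1.20 (limma, adjusted p = 0.031) and GTF2A1 one of -0.97 (adjusted p = 0.0456). UBE2E1, a ubiquitin-conjugating enzyme, stood at 101 and 62.6 CPM in 4-cell and 37.3 and 27.3 CPM in 8-cell edited libraries, with a log2 change of -1.29 (limma, adjusted p = 0.0353). DR1, which binds TBP and represses it, was a further one. The count of 15 fell to 0 without any 1 of the 4 edited libraries and to 9 without replicate 1 of the 8-cell controls, and it was 30 and 28 without replicate 1 and replicate 2 of the 4-cell controls. edgeR called 3 members lower and DESeq2 31.

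The editing effect at the 8-cell minus that at the 4-cell stage was fitted across all genes. The edited and control values that chose the members enter it, so its values for them are a description and no p is given for a member. At an adjusted p-value under 0.05 limma called 47 members (5.88%) with a smaller effect at the 8-cell stage, against 2.00% of the 12129 genes tested. None had a larger effect there, against 1.95% of all genes, with 1 member at an unadjusted p-value under 0.05. The median difference of log2 effects was -0.75 over the members, -0.16 over the genes averaging at least 10 CPM and -0.02 over all genes. NUDT4, which splits diphosphoinositol phosphates, shared all values with LOC531462. It stood at 21.6 and 27.8 CPM in 4-cell controls, 54.6 and 47.4 CPM in 8-cell controls, 125 and 129 CPM in 4-cell edited and 65.6 and 60.3 CPM in 8-cell edited libraries. Its effect was smaller at the 8-cell stage by a log2 difference of -2.02 ± 0.34 (SE). Between the stages it rose in controls (log2 fold change 1.02, adjusted p = 0.0233) and fell in edited embryos (adjusted p = 0.0297) by limma.

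ANKRD40CL followed with a log2 difference of -1.95 ± 0.35 (SE). Its edited libraries stood at 145 and 181 CPM at the 4-cell and 125 and 122.5 CPM at the 8-cell stage. Of the members described above, GTF2A1 (-1.65), FZD5 (-1.59), CKS2 (-1.24), SYCP3 (-1.18), PCGF6 (-1.36), CNOT6 (-1.54), UBE2E1 (-2.23), RDX (-1.45) and ZFAND5 (-1.38) were also among the 47. The count of 47 fell to 0 without replicate 1 of the 8-cell controls or without any 1 of the 4 edited libraries and to 7 without replicate 1 of the 4-cell controls, and it was 275 without replicate 2 of the 4-cell controls. In both directions together edgeR called 2 members and DESeq2 102.

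MAP3K7CL ran the other way in its values, with the highest ratio of all members at the 8-cell stage (3.75, against 1.94 at the 4-cell stage). It stood at 8.90 and 8.15 CPM in 4-cell controls, 8.01 and 5.56 CPM in 8-cell controls, 9.08 and 24.01 CPM in 4-cell edited and 28.6 and 22.2 CPM in 8-cell edited libraries. Replicate 1 of the 4-cell edited embryos lay next to the controls, and the difference of effects was 1.03 ± 0.57 (SE). It was singled out after its values had been seen.

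Not every member was a separate measurement. In 9 pairs both genes carried the same value in all 8 libraries, so the 799 members held 790 distinct profiles. Among these pairs were PRTG and PYGO1, CFAP53 and MBD1, LRRC69 and OTUD6B, and ITGAE and P2RX5. By the gene order of the RefSeq annotation of assembly ARS-UCD2.0, 795 members could be placed. Of 3733 pairs of adjacent genes averaging at least 10 CPM, 70 (1.88%) were pairs of members, and 6 of these 70 were pairs with identical values.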

How the data were processed

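RNA was amplified with a Smart-seq2 kit and made into Nextera XT libraries, per the labels' protocols, and the labels state no strand setting. The submitters' processing notes name Trim Galore 0.6.7, HISAT2 2.2.1 and featureCounts 2.0.1, and the genome build is not given in the sources used here. The deposited table holds CPM, although it is named as raw counts, and 4 of its 12 columns matched no sample and were not used. Whole reads were recovered from the steps of the deposited CPM values (100% of positive values were whole within 0.05 reads), its columns sum to between 992528 and 1007024, and CPM is relative, so a rise of some genes lowers the others. Values were analysed as deposited. limma 3.58.1 in R 4.3.3 with a trend was fitted to log2(CPM + 1), with a mean for each of the 4 groups over all 8 libraries, on 12129 genes averaging at least 1 CPM. P-values were adjusted by Benjamini-Hochberg over all of them and called under 0.05, and the test was tried on simulated data. The log2 scale with a pseudocount of 1 understates changes of low genes.

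Alternatives were a pseudocount of 5, no filter, TMM scaling, edgeR 4.0.16 and DESeq2 1.42.0 on recovered reads, the libraries of 1 condition alone, a replicate block and leaving out each library. The members and lists were chosen with earlier results of these data known. Named were the 10 members with the widest gap (1 of them is not reported here), the 6 with the highest mean, up to 2 per list, up to 3 called members per stage comparison and direction, and the 2 genes on either side of the ratio bound; genes without a symbol were otherwise only counted. Genes of the 5 lists drawn up after the members had been seen, and other members described beyond this rule, were chosen with their values in view. Near-identical copies, overlapping genes and antisense genes may share reads. Promoter and protein sequences were not used here.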

Additional observations from a re-analysis of the deposited data

Results flagged for a closer look

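For 47 members limma, fitted across all genes, called a difference of the editing effect between the stages, each with the smaller effect at the 8-cell stage. Among the genes named in the text, the log2 effect at the 8-cell minus that at the 4-cell stage was -2.02 for NUDT4 and for LOC531462, which share all values, -1.99 for LOC132342739, -1.95 for ANKRD40CL and -1.65 for GTF2A1. It was -1.59 for FZD5, -1.45 for RDX, -1.38 for ZFAND5, -1.24 for CKS2, -1.18 for CEP57L1 and -1.18 for SYCP3. In each of them the 4-cell edited libraries lay furthest above the controls of their stage. The edited and control values in this comparison also chose the members, so it is a description of them and no independent test. By edgeR 2 members were called and by DESeq2 102.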

How the results depend on the processing

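All 799 members kept an edited mean above the control mean under TMM and DESeq2 scaling, and 753 and 750 of them kept every edited above every control library. The rule was met by 1002 genes after TMM scaling, 937 with DESeq2 size factors, 176 with a ratio of at least 2, and 621 to 1362 with 1 library left out. Members called higher at the 8-cell stage in controls (92) numbered 0 with no filter on low values, 1 with edgeR, 1 with only the 4 control libraries and 0 to 334 with 1 library left out. Members called lower in edited embryos (15) numbered 0 with no filter, 46 with only the 4 edited libraries, 3 with edgeR, 31 with DESeq2 and 0 to 30 with 1 library left out. Members called higher in edited embryos (0) numbered 2 with only the 4 edited libraries and 0 to 2 with 1 library left out. Members with a differing effect (47) numbered 0 with no filter, 2 with edgeR, 102 with DESeq2 and 0 to 275 with 1 library left out. The cause was not tested. Over all genes edgeR on recovered reads called 25 higher and 61 lower between the stages in controls, where limma called 334 and 760. No member was called lower at the 8-cell stage in controls under any of these settings.

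Same-numbered libraries did not deviate together (correlations from -0.30 to 0.11). Replicate 2 of every group has the letter D in its library name and replicate 1 of both edited groups the letter C, and the labels do not say what number or letter stand for, so no pairing was assumed. With the replicate block the stage counts were 66 higher in controls, 8 lower and 0 higher in edited embryos and 27 with a differing effect. With the pairing of the 8-cell control numbers crossed, a setting chosen after seeing the data, they were 161, 23, 1 and 95. The edited to control ratios of named genes moved by less than the spread between replicates in 575 recomputations and by more in 55; their direction with a library left out is fixed by the rule. Calls of named genes held in 92 recomputations and fell short of the threshold in 49. Besides the stage calls, these numbers count the effect differences of ANKRD40CL, NUDT4 and LOC531462, of which NUDT4 and LOC531462 share all values. Over 16 settings limma's and the other tools' adjusted p reached 0.0592 for ANKRD40CL, 0.149 for CEP57L1 and 0.104 for SPAG17 in controls and 0.283 for LOC132342739 and 0.212 for RDX and ZFAND5 in edited embryos. These calls held in 13, 11, 11, 10, 11 and 10 settings. Among the 157 members with a gap under 5%, counting error can decide membership where a gene's reads are few, which was not worked out for each. Having 2 libraries in a group limits the precision.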

Other observations

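The title of the series names N6-methyladenosine, a methyl mark on messenger RNA. Of 16 genes of its writers, erasers and YTH readers, 4 were members, 2 (METTL3 and YTHDF2) met the mirrored rule and 10 met neither. Over all genes averaging at least 10 CPM, 10.8% met the rule and 20.2% the mirrored rule. The 16 genes were listed after the members had been seen, so the counts are only a description. CBLL1, a subunit of the methyltransferase complex, stood at 58.1 and 106 CPM in 4-cell and 111 and 82.3 CPM in 8-cell controls, 177 and 175 CPM in 4-cell edited and 218 and 210.1 CPM in 8-cell edited libraries. METTL14, which holds the RNA for the catalytic subunit, stood at 63.7 to 86.1 CPM in the controls and 115 to 155 CPM in the edited libraries. METTL16, a separate methyltransferase, stood at 23.7 to 34.8 CPM and 41.4 to 51.2 CPM. The reader YTHDF1 stood at 6.92 to 8.69 CPM in the controls, 19.7 and 19.1 CPM in 4-cell edited and 12.97 and 9.85 CPM in 8-cell edited libraries, so that its 8-cell edited pair lay closer to the controls.

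Of 13 mitochondrially encoded genes in the table, ND3 was the only member, although 9 of the 13 had a ratio of edited to control means of at least 1.5 and 12 one above 1. ND3, a subunit of respiratory complex I, stood at 49.4 and 44.2 CPM in 4-cell and 36.5 and 80.9 CPM in 8-cell controls, 205 and 95.5 CPM in 4-cell edited and 155 and 137 CPM in 8-cell edited libraries.

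RIPPLY2, a transcriptional repressor of somite formation, had a ratio of 3.12, with 4.55 and 6.66 CPM in 4-cell and 15.9 and 10.02 CPM in 8-cell controls and 23.8 to 35.7 CPM in the edited libraries. TSPAN19, a tetraspanin, had a ratio of 3.28, with 6.11 and 23.5 CPM in 4-cell and 34.9 and 21.4 CPM in 8-cell controls and 41.9 to 114 CPM in the edited libraries. In both the lowest library was replicate 1 of the 4-cell controls.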
